A study of Homo sapiens with 12 samples.

Results

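The 10 genes of receptor-coupled G protein signalling described here are 5 that encode G protein alpha subunits (GNAZ, GNAI2, GNAI3, GNA13 and GNA15) and 5 that encode regulators of G protein signalling, or RGS proteins (RGS1, RGS2, RGS13, RGS16 and RGS19). They are the rows of the deposited count table that carry these symbols on an autosome, 10 of 60675 genes in all. GNAZ was selected on its low counts in the untreated Y691F libraries, so its values in every comparison that uses untreated libraries are a description without a test. The polyA+ RNA came from U-2932, a human cell line of diffuse large B cell lymphoma, made to express Roquin2 stably. Roquin2 is the product of RC3H2 and binds stem-loops in target mRNAs, which are then degraded. Each of 4 groups held 3 libraries that the submitters call independent biological replicates. In the first group the cells carried Roquin2 with the Y691F substitution and received F(ab')2-IgM, an antibody fragment used to stimulate B cells through their antigen receptor. The dose was 10 µg/ml and the exposure 12 h. The second group carried wild-type (WT) Roquin2 and received the same agent, and the other groups were untreated Y691F cells and untreated WT cells. All groups therefore carried an introduced Roquin2, cells without one were not analysed here, and the sources used here do not say how many independently made lines each form stands for. The Roquin2 form and any other difference between the lines cannot be told apart.

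A G protein alpha subunit binds GDP at rest, takes up GTP when a receptor is engaged, and signals until it hydrolyses that GTP. RGS proteins speed the hydrolysis and so shorten the signal, mostly for alpha subunits of the Gi and Gq classes. B cells use Gi proteins downstream of chemokine receptors for migration, and the protein encoded by GNA13 downstream of receptors that hold germinal center B cells in place. RGS1 and RGS13 are known as brakes on chemokine responses of B cells.

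Library totals ran from 16465393 to 21478790 counts, and replicates differed by 1.43 to 2.42 times counting error (chi-square over degrees of freedom). The 6 B cell markers MS4A1, CD79A, CD79B, PAX5, CD22 and BLNK summed to between 2220.4 and 3350.2 CPM, which are counts as a share of the scaled library total. T and NK cell markers summed to at most 1.71 CPM, with CD3D, CD2, NKG7 and GNLY at 0 in all 12 libraries, and myeloid markers to at most 1.58 CPM, with FCGR3A at 0. Fibroblast and epithelial markers summed to between 20.7 and 27.1 CPM, with CDH1 at 0. By group, the summed B cell markers were 2220.4 to 2277 CPM in Y691F with IgM, 2298 to 2338 CPM in WT with IgM, 2910.5 to 2942 CPM in untreated Y691F and 3305 to 3350.2 CPM in untreated WT, and the part of this in the results was not tested. RC3H2 stood at 206 ± 1.79 CPM in Y691F with IgM and 121 ± 1.80 CPM in WT with IgM, and at 209 ± 0.880 CPM in untreated Y691F and 111 ± 1.08 CPM in untreated WT (SD, n = 3 each). Whether counts from the introduced gene fell on RC3H2 is not given, and its part in the results was not tested. In these bulk samples, fewer cells with a transcript and less transcript per cell cannot be told apart.

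Of the RGS genes, RGS1, RGS13 and RGS2 lie in this order on the plus strand of chromosome 1 (GRCh38), with gaps of 56.1 kb and 149 kb between them. Their promoters are shown because these 3 neighbours behaved differently with IgM: RGS1 and RGS2 rose by several log2 units while RGS13, between them, moved by 0.11 in Y691F and 0.12 in WT. Each line gives the 250 bases before the start that RefSeq annotates (GRCh38.p14, plus strand), 5′ to 3′, and capitals mark matches to motifs searched on both strands.
RGS1: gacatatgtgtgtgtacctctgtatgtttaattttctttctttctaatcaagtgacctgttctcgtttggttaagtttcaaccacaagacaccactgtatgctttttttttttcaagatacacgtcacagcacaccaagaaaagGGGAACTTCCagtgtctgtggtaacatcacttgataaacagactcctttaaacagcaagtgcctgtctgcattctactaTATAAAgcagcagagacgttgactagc
RGS13: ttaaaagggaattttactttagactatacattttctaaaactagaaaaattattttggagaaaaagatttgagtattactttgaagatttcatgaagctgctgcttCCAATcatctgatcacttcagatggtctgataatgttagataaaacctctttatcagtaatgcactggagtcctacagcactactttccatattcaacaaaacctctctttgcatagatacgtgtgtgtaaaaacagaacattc
RGS2: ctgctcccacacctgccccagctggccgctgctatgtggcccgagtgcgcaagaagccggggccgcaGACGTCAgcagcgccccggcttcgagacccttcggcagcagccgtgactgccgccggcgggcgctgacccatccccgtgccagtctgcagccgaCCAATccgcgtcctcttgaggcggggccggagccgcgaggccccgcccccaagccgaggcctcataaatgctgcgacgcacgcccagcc
These stretches are chr1:192575523-192575772 for RGS1, chr1:192635897-192636146 for RGS13 and chr1:192808789-192809038 for RGS2. The motifs were chosen after the sequences had been read, and they were the TATA box (TATAAA), the CCAAT box, the AP-1 site (TGANTCA) and the EGR site (GCGNGGGCG). The cAMP response element, or CRE (TGACGTCA), the core that it contains (GACGTCA) and the NF-kB consensus were searched as well. RGS1 held an NF-kB match that begins 106 bases before the start, found in 9.96% of 35116 RefSeq promoter windows of that length, and TATAAA 27 bases before it, found in 10.7%. RGS2 held GACGTCA 183 bases before the start, found in 3.12% of windows, and CCAAT 89 bases before it, found in 32% of windows. RGS13 held CCAAT 144 bases before the start. The AP-1 motif (6.57% of windows), the EGR motif (8.41%) and the full CRE (1.65%) had no match in the 3 stretches. A match is a string of letters and says nothing about binding. RefSeq promoters were matched for 8 of the 10 genes, without GNAZ and GNA15.

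**Figure D1:**
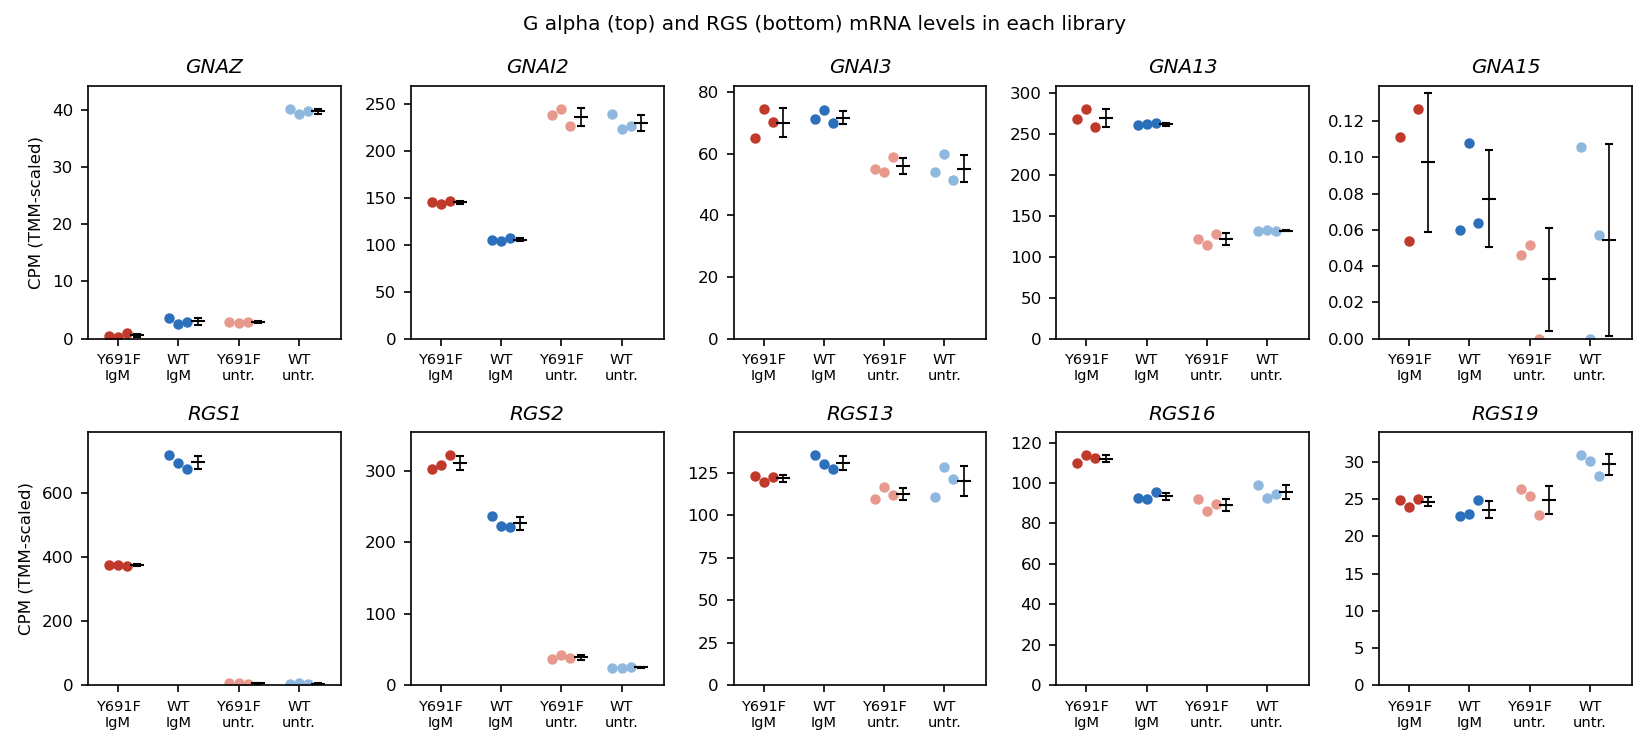
CPM, scaled by TMM library factors, in each of the 12 libraries for the 5 G alpha genes (top) and the 5 RGS genes (bottom). Points are libraries, and the bar beside each group of 3 is the mean with its SD; each panel has its own axis from 0. GNAZ stands near 39.7 CPM only in untreated WT, and RGS1 and RGS2 are high in both IgM groups.

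GNAZ (ENSG00000128266, chromosome 22, 23070361 to 23125037, plus strand, GRCh38) encodes the alpha subunit of Gz, a member of the Gi class that pertussis toxin does not modify and that lowers cAMP. Its counts were 9, 4 and 14 in Y691F with IgM and 61, 46 and 45 in WT with IgM. In untreated cells they were 63, 52 and 59 in Y691F and 757, 880 and 694 in WT. The untreated WT libraries thus held far more GNAZ counts than the other 9, and every Y691F library was below every WT library of the same treatment. In CPM, GNAZ averaged 0.534 ± 0.338 in Y691F with IgM and 3.0 ± 0.595 in WT with IgM, and 2.85 ± 0.144 in untreated Y691F and 39.7 ± 0.489 in untreated WT (SD, n = 3 each). Under IgM, GNAZ was 5.62-fold lower in Y691F than in WT. The fitted log2 change was -2.52 (SE 0.26, adjusted p = 5.25e-14 by edgeR's quasi-likelihood test, adjusted over all 15112 genes tested by the Benjamini-Hochberg method, as are all adjusted p-values below). This value rests on 27 counts in all in Y691F with IgM. The choice of GNAZ did not use the IgM libraries, but these came from cells of the same Roquin2 forms as the untreated ones. All libraries also shared the fit's estimate of the spread. The test is therefore not independent support for the loss on which GNAZ was selected. As a description, GNAZ was 13.9-fold lower in untreated Y691F than in untreated WT, 5.34-fold lower with IgM than without in Y691F and 13.2-fold lower with IgM than without in WT. The order of its levels was untreated WT, then WT with IgM and untreated Y691F, whose libraries overlapped, then Y691F with IgM.

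RSPH14, a gene of the opposite strand (chromosome 22, 23059415 to 23145021), spans the whole of GNAZ. It had 1 count in Y691F with IgM, 8 in WT with IgM, 4 in untreated Y691F and 56 in untreated WT, summed over 3 libraries, so it moved with GNAZ. The libraries kept strand information, but the sources used here do not say whether the counting used it. Reads of GNAZ and RSPH14 therefore cannot be told apart with certainty, and the part of this overlap in the result was not tested. In Y691F with IgM the RSPH14 counts were 11.1% of the GNAZ counts in 1 library, with 1 and 9 counts, and 0 in the other 2 libraries, and the share in WT with IgM ran from 3.28% to 8.89%. In untreated Y691F they were 6.78% in 1 library and 0 in the other 2, and in untreated WT they were 2.02% to 2.61%.

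The 5 genes whose profile was most like that of GNAZ were PLD4 (Pearson r = 0.996), ZNF385C (0.984), ARPC2 (0.979), FRMPD3 (0.978) and ZMIZ1 (0.978). The measure was the correlation of log2(CPM + 1) over 12 libraries, among 12946 tested genes with a mean of at least 1 CPM. The libraries of a group are not independent points, so no p is given. PLD4, which encodes an endolysosomal exonuclease, averaged 1.28 ± 0.376 CPM in Y691F with IgM, 4.05 ± 0.476 in WT with IgM, 4.32 ± 0.167 in untreated Y691F and 30.5 ± 0.928 in untreated WT. ZNF385C averaged 0.0536 ± 0.0929 CPM in Y691F with IgM, 2.80 ± 0.488 in WT with IgM, 1.22 ± 0.175 in untreated Y691F and 29.7 ± 3.03 in untreated WT. A high r does not mean a change of like size. ARPC2, which encodes a subunit of the Arp2/3 complex that nucleates branched actin, had 462 ± 8.95 CPM in Y691F with IgM and 591 ± 8.34 CPM in untreated WT.

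**Figure D2:**
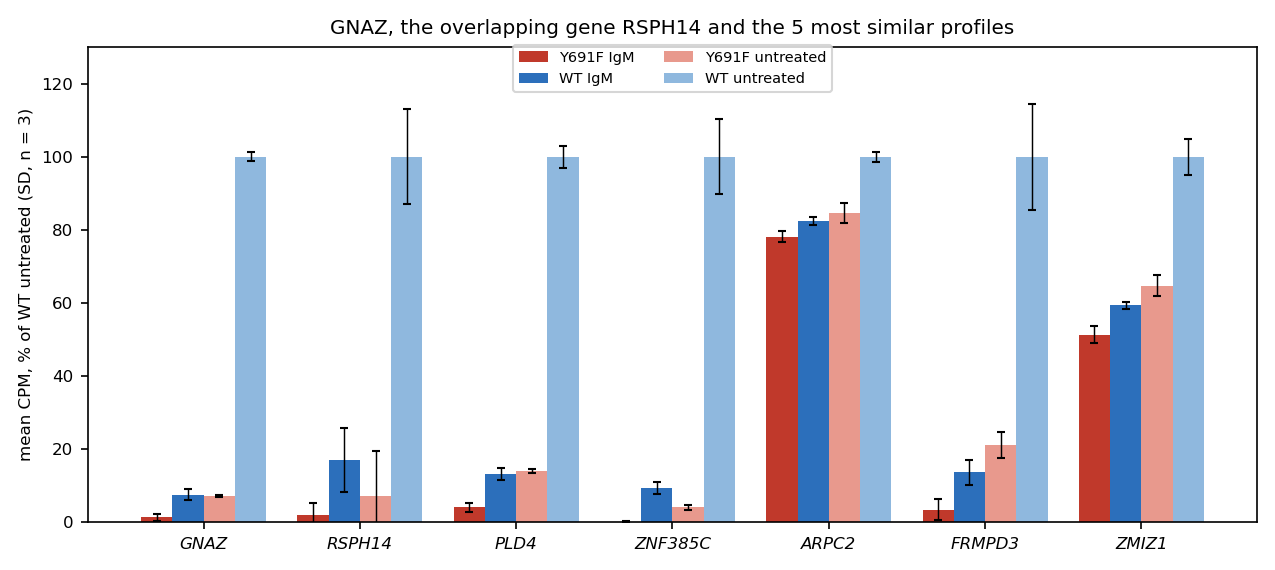
Mean CPM of GNAZ, of the overlapping gene RSPH14 and of the 5 genes most like GNAZ, each as a percentage of its own mean in untreated WT. Bars are the 4 groups and error bars the SD of 3 libraries. GNAZ, PLD4 and ZNF385C are low in all groups but untreated WT, whereas ARPC2 and ZMIZ1, also highest in untreated WT and lowest in Y691F with IgM, span a narrower range.

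GNAI2 (ENSG00000114353, chromosome 3, 50226292 to 50259355, plus strand) encodes the Gi alpha subunit best known for chemokine receptor signalling in lymphocytes. It stood at 145, 143 and 146 CPM in Y691F with IgM and at 104, 104 and 107 CPM in WT with IgM. Without treatment it stood at 238, 244 and 226 CPM in Y691F and at 239, 223 and 226 CPM in WT. The IgM libraries of the 2 forms were separated, and the untreated ones overlapped. GNAI2 was 1.38-fold higher in Y691F than in WT under IgM (log2 0.47, SE 0.04, adjusted p = 6.54e-20), and no difference was called in untreated cells (log2 0.04, adjusted p = 0.307). With IgM it fell, with a log2 change of -0.70 in Y691F (adjusted p = 3.27e-34) and -1.13 in WT (adjusted p = 3.09e-47). The difference between these responses, Y691F minus WT, was 0.42 (SE 0.05, adjusted p = 7.22e-12), so the fall was smaller in Y691F.

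GNAI3 (ENSG00000065135, chromosome 1, 109548611 to 109618321, plus strand) encodes a second Gi alpha subunit. Its libraries held 65.2, 74.6 and 70.4 CPM in Y691F with IgM and 71.2, 74.2 and 69.9 CPM in WT with IgM. Untreated libraries held 55.0, 54.2 and 59.0 CPM in Y691F and 54.2, 59.9 and 51.4 CPM in WT. The 2 Roquin2 forms overlapped under both conditions, with a log2 difference of -0.04 under IgM (SE 0.05, adjusted p = 0.576) and 0.02 without (SE 0.05, adjusted p = 0.829). IgM raised GNAI3 by 0.32 in Y691F (adjusted p = 5.76e-09) and by 0.37 in WT (adjusted p = 6.91e-11), and the responses were not called different (-0.05, SE 0.07, adjusted p = 0.627). The 3′ end of GNAI3 overlaps AMPD2 on the same strand, so reads there could be counted on either gene or on neither. AMPD2, which encodes an AMP deaminase, averaged 51.7 ± 2.02 CPM in Y691F with IgM, 65.9 ± 1.77 in WT with IgM, 48.5 ± 1.76 in untreated Y691F and 91.0 ± 1.59 in untreated WT. It was lower in Y691F both with IgM (log2 -0.35, adjusted p = 2.01e-10) and without (-0.91, adjusted p = 2.68e-33), where GNAI3 showed no called difference.

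GNA13 (ENSG00000120063, chromosome 17, 65010715 to 65056839, minus strand) encodes an alpha subunit and is often mutated in germinal center lymphomas. It stood at 268, 281 and 259 CPM in Y691F with IgM and at 261, 262 and 264 CPM in WT with IgM. Without treatment it stood at 122, 114 and 128 CPM in Y691F and at 131, 132 and 132 CPM in WT. All IgM libraries were above all untreated ones. The rise was 1.15 on the log2 scale in Y691F (SE 0.03, adjusted p = 2.01e-48) and 0.99 in WT (SE 0.03, adjusted p = 6.70e-44), about a doubling in each. The response was larger in Y691F by 0.16 (SE 0.05, adjusted p = 0.00821), a call lost with library totals only (0.12, adjusted p = 0.0546) and without untreated Y691F replicate 2 (0.11, adjusted p = 0.0690). Under IgM no difference between the forms was called (0.04, adjusted p = 0.340). In untreated cells GNA13 was lower in Y691F by a log2 change of -0.12 (adjusted p = 0.00611), which was not called without untreated Y691F replicate 2 (-0.076, adjusted p = 0.121).

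GNA15 (ENSG00000060558, chromosome 19, 3136193 to 3163769, plus strand) encodes a Gq-class alpha subunit of blood cells that couples to many receptors. It had 2, 1 and 2 counts in Y691F with IgM, 1, 2 and 1 in WT with IgM, 1, 1 and 0 in untreated Y691F, and 2, 0 and 1 in untreated WT. With at most 2 counts in a library it was below the filter on low counts, and a difference between groups was not detectable at this depth. The other 9 genes were tested, of which GNAZ reached 10 counts in every library of 3 groups and the rest in every library of all 4.

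RGS1 (ENSG00000090104, chromosome 1, 192575727 to 192580031, plus strand) had the strongest IgM response of the 10 genes. It stood at 375, 376 and 373 CPM in Y691F with IgM and at 717, 694 and 675 CPM in WT with IgM. Untreated libraries held 5.34, 5.39 and 4.23 CPM in Y691F and 4.19, 4.76 and 4.65 CPM in WT. The untreated groups overlapped, and the WT libraries with IgM lay far above the Y691F libraries with IgM. RGS1 rose 75.2-fold with IgM in Y691F (log2 6.23, SE 0.05, adjusted p = 2.76e-89) and 153-fold in WT (log2 7.26, SE 0.05, adjusted p = 1.75e-95). The response in Y691F was smaller by 1.03 on the log2 scale (difference -1.03, SE 0.12, adjusted p = 2.17e-11). Under IgM, RGS1 was 1.85-fold lower in Y691F than in WT (log2 -0.89, SE 0.03, adjusted p = 3.29e-44), and untreated cells showed no called difference (0.14, SE 0.12, adjusted p = 0.429).

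RGS2 (ENSG00000116741, chromosome 1, 192809039 to 192812283, plus strand) encodes an RGS protein with a preference for Gq. It stood at 303, 309 and 322 CPM in Y691F with IgM and at 237, 222 and 221 CPM in WT with IgM. Without treatment it stood at 36.0, 42.5 and 37.6 CPM in Y691F and at 24.4, 24.2 and 25.2 CPM in WT. Every Y691F library was above every WT library under the same condition, the reverse of RGS1 under IgM. The difference was 0.45 under IgM (SE 0.03, 1.37-fold, adjusted p = 1.05e-20) and 0.65 in untreated cells (SE 0.06, 1.57-fold, adjusted p = 3.91e-17). RGS2 rose 8.05-fold with IgM in Y691F (log2 3.01, adjusted p = 5.00e-70) and 9.22-fold in WT (log2 3.21, adjusted p = 4.98e-69). The response was smaller in Y691F by a difference of -0.20 (SE 0.06, adjusted p = 0.0160). That call did not hold with the DESeq2 Wald test (adjusted p = 0.0517) or without Y691F IgM replicate 1 (-0.17, adjusted p = 0.0539), WT IgM replicate 1 (-0.16, adjusted p = 0.0747), untreated Y691F replicate 2 (-0.13, adjusted p = 0.163) or untreated WT replicate 2 (-0.18, adjusted p = 0.0567).

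RGS13 (ENSG00000127074, chromosome 1, 192636138 to 192660306, plus strand) is a gene of germinal center B cells. It stood at 123, 119 and 123 CPM in Y691F with IgM and at 135, 129.7 and 127 CPM in WT with IgM. Untreated libraries held 109, 116 and 112 CPM in Y691F and 111, 128 and 121 CPM in WT. The 4 groups lay close together, and the untreated forms overlapped. Called differences were small: -0.10 for Y691F against WT under IgM (SE 0.04, adjusted p = 0.0207) and -0.10 in untreated cells (SE 0.04, adjusted p = 0.0392). The first was lost with 6 of 20 alternatives, among them leaving out replicate 1 or 2 of either IgM group, furthest without WT IgM replicate 1 (-0.074, adjusted p = 0.190). The second was lost with 13 of 20, furthest without untreated WT replicate 2 (-0.044, adjusted p = 0.491). Of single libraries left out, it held only without Y691F IgM replicates 2 and 3, untreated Y691F replicate 2 and untreated WT replicate 1. IgM raised RGS13 by 0.11 in Y691F (adjusted p = 0.00578) and by 0.12 in WT (adjusted p = 0.00307), with a sign that turned under scaling by library totals (-0.057 in Y691F and -0.014 in WT). Both calls were also lost when genes needed 5 CPM in 3 libraries, and the one in WT without untreated WT replicate 1 (0.068, adjusted p = 0.110).

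RGS16 (ENSG00000143333, chromosome 1, 182598623 to 182604408, minus strand, 9970 kb from RGS1) encodes an RGS protein that acts on Gi and Gq. It stood at 110.0, 114 and 112 CPM in Y691F with IgM and at 92.7, 92.2 and 95.3 CPM in WT with IgM. Without treatment it stood at 91.9, 86.1 and 89.6 CPM in Y691F and at 99.3, 92.6 and 94.4 CPM in WT. The 3 Y691F libraries with IgM were above the other 9. RGS16 was higher in Y691F under IgM (log2 0.26, SE 0.04, adjusted p = 7.75e-09), and its IgM response was larger in Y691F by 0.36 (SE 0.05, adjusted p = 4.78e-08). It rose with IgM in Y691F (log2 0.33, adjusted p = 4.93e-13), and in WT the change was -0.03 (adjusted p = 0.470). Scaling by library totals turned that WT value into a called fall (-0.16, adjusted p = 8.29e-05). In untreated cells a difference of -0.10 was called (adjusted p = 0.0418), and this call was lost with 15 of 20 alternatives. Of single libraries left out, it held only without untreated Y691F replicate 1 and untreated WT replicate 2.

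RGS19 (ENSG00000171700, chromosome 20, 64073181 to 64079988, minus strand) encodes an RGS protein of the group that acts on Gi and Gz. It stood at 24.9, 24.0 and 25.1 CPM in Y691F with IgM and at 22.8, 23.1 and 24.9 CPM in WT with IgM. Untreated libraries held 26.4, 25.5 and 22.9 CPM in Y691F and 30.9, 30.1 and 28.1 CPM in WT. Untreated WT was the high group, and the other 3 overlapped. RGS19 was lower in untreated Y691F (log2 -0.25, SE 0.06, adjusted p = 4.09e-04) and not called different under IgM (0.07, SE 0.07, adjusted p = 0.454). It fell with IgM in WT (-0.34, SE 0.06, adjusted p = 1.37e-06), whereas in Y691F the value was -0.02 (SE 0.06, adjusted p = 0.808). The responses differed by 0.32 (SE 0.09, adjusted p = 0.00376).

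**Figure D3:**
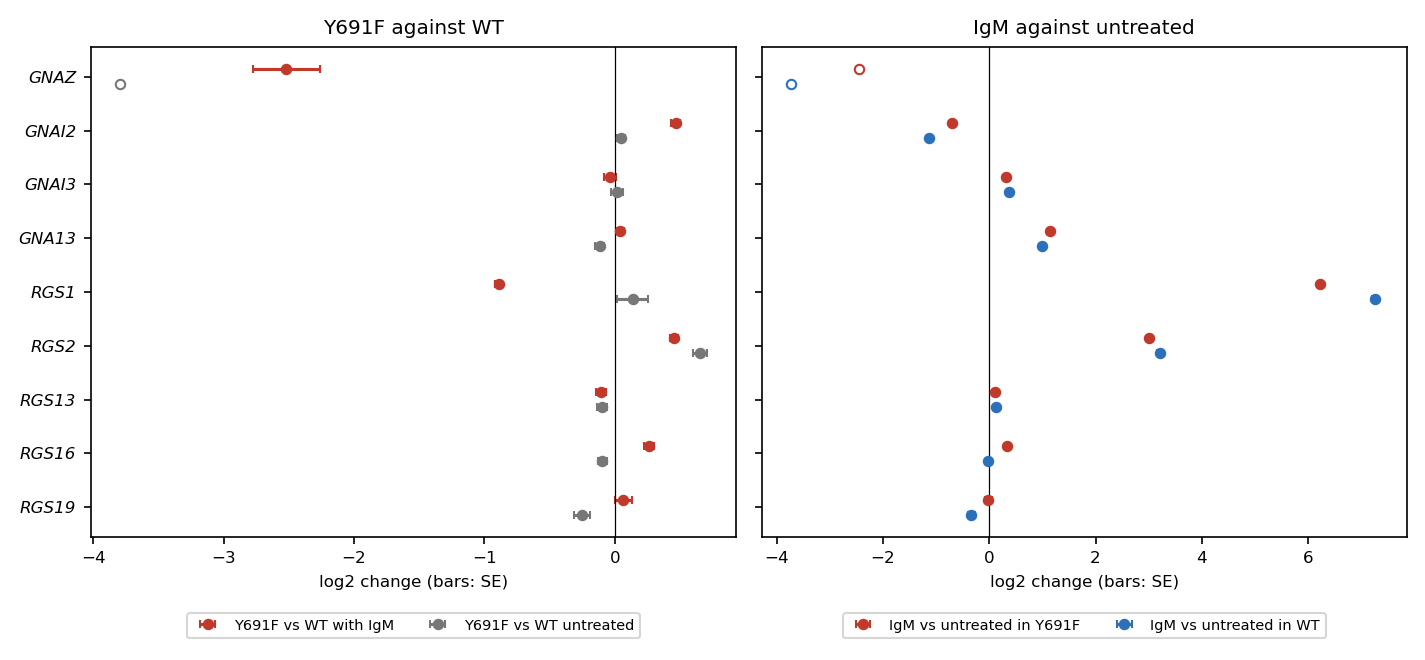
Fitted log2 changes of the 9 genes with enough counts, for Y691F against WT (left) and for IgM against untreated (right), with bars of 1 SE. Open circles mark GNAZ where its values are a description without a test. RGS1 and RGS2 lie farthest to the right with IgM, and only GNAZ and RGS1 lie below -0.5 for Y691F against WT under IgM.

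Counted together, 3 of the 9 genes tested under IgM were higher in Y691F (GNAI2, RGS2 and RGS16), 3 were lower (GNAZ, RGS1 and RGS13) and 3 were not called. Of all 15112 genes, 21.9% were higher and 20.2% were lower in this comparison. In untreated cells, with GNAZ left aside, RGS2 was higher in Y691F, GNA13, RGS13, RGS16 and RGS19 were lower, and 3 of 8 were not called, against 15.1% higher and 16.1% lower over all genes. The 5 calls in untreated cells became 3 or 4 whichever single library was left out. IgM raised 6 of 8 genes and lowered GNAI2 in Y691F, where 37.1% of all genes were higher and 38.7% lower. In WT it raised 5 of 8 and lowered GNAI2 and RGS19, where 38.4% of all genes were higher and 38.5% lower. The response was more positive in Y691F for GNA13, GNAI2, RGS16 and RGS19 and less positive for RGS1 and RGS2, against 14.7% and 11% of all genes. The median log2 change of the genes tested was 0.04 for Y691F against WT under IgM, -0.04 untreated, 0.33 for IgM in Y691F and 0.25 for IgM in WT, and over all genes it lay between -0.011 and 0.0016. These comparisons share groups of libraries, so their values are set side by side and not correlated.

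Levels of different genes can be compared only per length. The deposited RPKM values divide by the length of all exons of a gene together, which for RGS1, RGS13 and GNAI2 is several times the length of the principal transcript. Levels are therefore given also as CPM per kb of that transcript. In RPKM, the G alpha genes of untreated WT cells were ordered GNAI2 at 25.5, GNA13 at 22, GNAZ at 8.81 and GNAI3 at 1.73. Per kb of principal transcript the order was the same, at 93.0, 26.8, 11.9 and 2.03. GNAI3 was low on both scales, but both used the same length for it, 27174 bases, far longer than those of the other genes. The second scale is therefore no check of its place, which, like its part in the sums below, rests on that length. In CPM, GNAI3 stood above GNAZ in untreated WT, at 55.2 ± 4.35 against 39.7 ± 0.489. The share of GNAZ in the summed RPKM of the Gi-class genes GNAZ, GNAI2 and GNAI3 was 0.639% ± 0.397 in Y691F with IgM, 4.55% ± 0.875 in WT with IgM, 2.21% ± 0.180 in untreated Y691F and 24.4% ± 0.435 in untreated WT (SD, n = 3 each). Per kb of principal transcript the shares were 0.259%, 1.95%, 0.869% and 11.1% in the same groups. GNAI2 made up most of the sum in all groups on both scales, from 70.8% of the RPKM in untreated WT upward.

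Among the RGS genes, RGS16 was the highest in untreated cells by RPKM, at 41.9% ± 1.90 of the 5 genes' summed RPKM in Y691F and 45.1% ± 1.53 in WT. Per kb of principal transcript RGS13 was the highest instead, at 74.1 ± 2.38 in untreated Y691F and 79.1 ± 5.75 in untreated WT, against 36.7 ± 1.21 and 39.3 ± 1.43 for RGS16. With IgM the first place passed to RGS1 or RGS2. The ratio of RGS1 to RGS2 in RPKM was 0.614 ± 0.0209 in Y691F with IgM and 1.56 ± 0.0268 in WT with IgM, so that RGS2 led in Y691F and RGS1 in WT. Per kb of principal transcript RGS1 led in both, at 267 ± 1.12 against 229.8 ± 7.08 for RGS2 in Y691F and 495 ± 15.1 against 168 ± 6.72 in WT. Which gene leads in Y691F thus depends on the length used. The lower ratio in Y691F than in WT does not depend on which of these lengths is used, since a length that is the same in all groups cancels. Whether the forms differ in the transcripts they use was not tested.

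**Figure D4:**
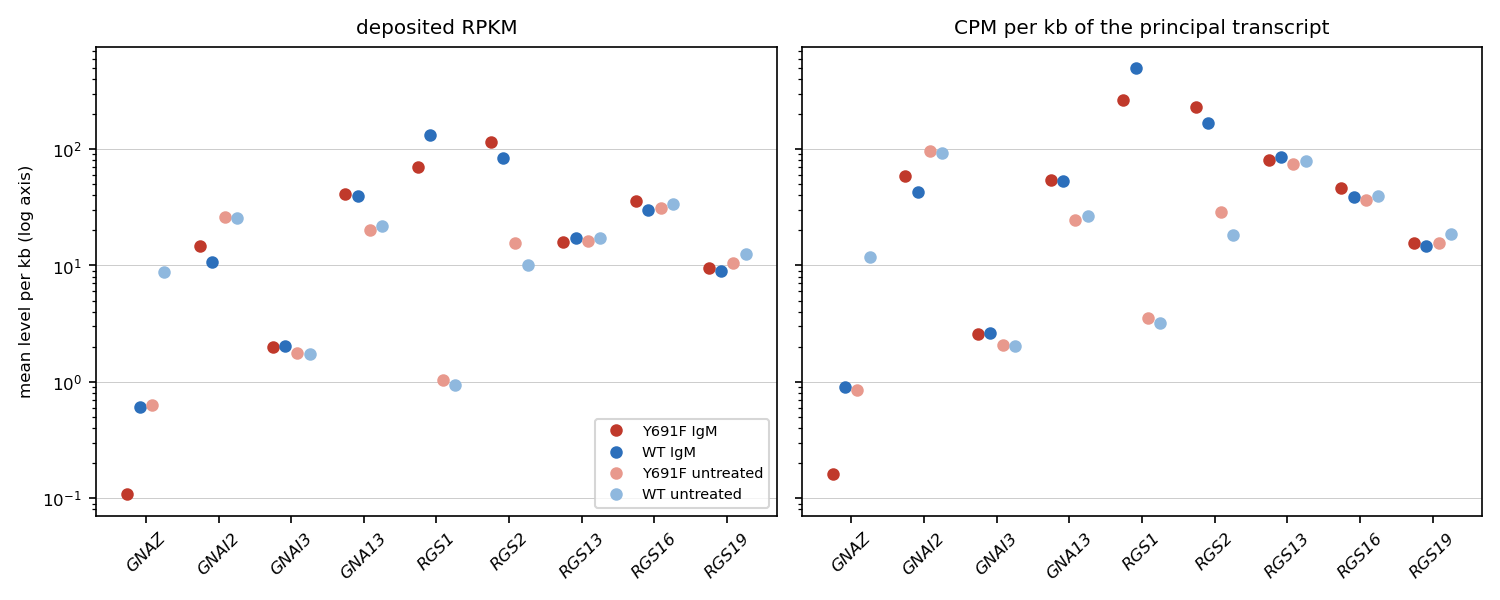
Mean level per kb of the 9 genes with enough counts in the 4 groups, on a log axis, as RPKM (left) and as CPM per kb of the principal transcript (right). Each point is the mean of 3 libraries. RGS1 and RGS13 stand higher on the right than on the left. GNAZ, which was selected on its low counts in untreated Y691F, has the widest range among the G alpha genes.

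The other genes of both families, and the pathway around them, were counted from lists, to be read against the 21.9% of all genes that were higher and the 20.2% that were lower in Y691F under IgM. Of 11 other G alpha genes 3 were tested, and all 3 were higher in Y691F under IgM. GNAS, which encodes the alpha subunit of Gs, the G protein that stimulates adenylyl cyclase, stood at 1449 ± 24.0 CPM in Y691F, against 1218 ± 17.5 CPM in WT (log2 0.25, SE 0.03, adjusted p = 2.72e-13). GNA12, the closest relative of GNA13, stood at 78.3 ± 1.40 CPM in Y691F, against 57.8 ± 1.44 CPM in WT (log2 0.44, SE 0.04, adjusted p = 6.21e-15), and GNA11, of the Gq class, at 24.3 ± 1.17 and 18.0 ± 1.16 CPM in the same order (log2 0.44, SE 0.07, adjusted p = 1.95e-07). The median over these 3 was 0.44, against -0.0049 over all genes. The 8 untested G alpha genes had at most 9 counts in a library, and GNAI1 and GNAT3 had none, which allows up to 3 counts in 222655352 (counting error only).

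Of 15 other RGS genes 7 were tested, and 5 were higher and none lower in Y691F under IgM, with a median of 0.41 over the 7. RGS8 stood at 10.5 ± 0.663 CPM in Y691F with IgM and 3.55 ± 0.290 CPM in WT with IgM, and at 25.0 ± 1.29 CPM in untreated Y691F and 27.6 ± 0.543 CPM in untreated WT. It fell with IgM, with a log2 change of -1.26 in Y691F (adjusted p = 2.95e-27) and -2.96 in WT (adjusted p = 8.29e-46), and the responses differed by 1.70 (SE 0.13, adjusted p = 3.25e-19). RGS10 rose with IgM by 1.08 in Y691F (adjusted p = 9.33e-32) and by 0.70 in WT (adjusted p = 4.12e-19), and under IgM it was higher in Y691F (0.41, adjusted p = 2.46e-10). RGS14, which binds Gi alpha subunits in their GDP form, fell with IgM in Y691F (-1.64, adjusted p = 8.20e-29) and in WT (-2.36, adjusted p = 2.32e-40), and under IgM its difference was 0.16 (adjusted p = 0.307). RGS12 (0.71, adjusted p = 0.0105), RGS3 (0.30, adjusted p = 0.0390) and RGS9 (0.75, adjusted p = 0.0445) were called higher in Y691F under IgM. RGS9 and RGS12 averaged under 2 CPM there. The call of RGS3 was lost with 9 of 20 alternatives, that of RGS9 with 6 and that of RGS12 with 2. RGS9 and RGS12 were each untested with 1 alternative. Between 2 and 5 of the 7 genes were called over the alternatives. With IgM, 2 of the 7 rose and 4 fell in Y691F, where 37.1% of all genes rose and 38.7% fell, and 1 rose and 4 fell in WT, where 38.4% rose and 38.5% fell. RGS5 had a difference of -0.0016 (adjusted p = 0.995).

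Of 10 tested genes listed for beta and gamma subunits, 1 was higher and 1 lower in Y691F under IgM, and the lower one, GNB2L1, is not a subunit gene in spite of its symbol. GNB5, which pairs with RGS proteins such as RGS9, was higher (0.54, SE 0.07, adjusted p = 3.19e-10), and GNB2L1, which encodes the ribosomal scaffold RACK1, was lower by a small amount (-0.07, adjusted p = 0.0241) that was not called with 8 of 20 alternatives. GNB1 had a difference of 0.05 (adjusted p = 0.105). Of 6 tested genes listed as chaperones and regulators, 3 were higher and 1 lower, but the list also holds FLNA, which encodes an actin crosslinker, and PTPRA, which encodes a receptor tyrosine phosphatase. RIC8A, the chaperone of newly made Gi, Gq and GNA13-class subunits, was at 161 ± 1.53 CPM in Y691F with IgM and 119.8 ± 2.24 CPM in WT with IgM (0.43, SE 0.03, adjusted p = 8.45e-19), and at 133 ± 4.42 CPM in untreated Y691F and 133 ± 3.36 CPM in untreated WT. FLNA was higher by 0.29 (adjusted p = 4.59e-15) and PTPRA by 0.30 (adjusted p = 5.52e-06).

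Downstream of GNA13, 3 of 8 tested genes were higher in Y691F under IgM and none lower. They were AKAP13 (0.16, adjusted p = 1.55e-06), ARHGEF12 (0.18, adjusted p = 1.87e-06) and ARHGAP1 (0.11, adjusted p = 0.0300, lost with library totals only and without any of 3 single IgM libraries). ARHGEF12 rose with IgM by 1.18 in Y691F (adjusted p = 7.69e-50) and by 1.06 in WT (adjusted p = 5.90e-46), and AKAP13 by 0.99 (adjusted p = 7.13e-48) and 0.82 (adjusted p = 7.02e-42) in the same order. In the cAMP pathway, 6 of 11 tested genes were higher in Y691F under IgM and 1 was lower, with a median of 0.44. PDE4D, a phosphodiesterase that degrades cAMP, stood at 48.2 ± 0.152 CPM in Y691F with IgM and 12.5 ± 0.410 CPM in WT with IgM (1.94, SE 0.07, adjusted p = 9.14e-42), and at 3.56 ± 0.593 CPM in untreated Y691F and 2.73 ± 0.261 CPM in untreated WT. PDE4B, of the same family, stood at 67.1 ± 4.57 CPM in Y691F with IgM and 19.5 ± 0.773 CPM in WT with IgM (1.78, SE 0.06, adjusted p = 9.42e-45). It was also higher in untreated Y691F, at 41.2 ± 0.721 CPM against 18.6 ± 0.305 CPM in untreated WT (1.15, SE 0.06, adjusted p = 2.05e-30). PRKAR2B, a regulatory subunit of protein kinase A, was higher in Y691F under IgM by 0.44 (adjusted p = 7.64e-12). The IgM response was more positive in Y691F for 5 of the 11 and less positive for none, against 14.7% and 11% of all genes.

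Of 3 tested phospholipase C beta genes, which encode effectors of Gq, PLCB1 was higher in Y691F under IgM, at 23.5 ± 1.26 CPM against 8.66 ± 0.844 CPM in WT (1.43, SE 0.08, adjusted p = 2.75e-27). It was also higher in untreated Y691F, at 14.1 ± 0.531 CPM against 8.68 ± 0.354 CPM in untreated WT (0.70, SE 0.09, adjusted p = 7.44e-11). PLCB2 was also called under IgM (adjusted p = 0.0230) at 0.309 ± 0.0621 CPM in Y691F, against 0.0772 ± 0.0267 CPM in WT, a few counts per library. That call was lost with 5 of 20 alternatives, and PLCB2 was untested with 2. In untreated cells PLCB2 was also called higher in Y691F, at 1.14 ± 0.170 CPM against 0.292 ± 0.0452 CPM in WT (1.96, SE 0.35, adjusted p = 3.81e-06). PLCB3 had a difference of 0.14 under IgM (adjusted p = 0.141). Among 6 tested receptor kinases and arrestins, 1 was higher and 3 lower in Y691F under IgM. The kinase genes ADRBK1 (-0.14, adjusted p = 4.67e-04), ADRBK2 (-0.24, adjusted p = 4.84e-04) and GRK6 (-0.17, adjusted p = 9.28e-04) were the 3 that were lower. In untreated cells ADRBK1 (-0.24, adjusted p = 5.92e-10) and GRK6 (-0.49, adjusted p = 8.73e-17) were also lower in Y691F. ADRBK2 was not called there (-0.07, adjusted p = 0.315). Among 12 tested receptors of B cells, 4 were higher and 1 lower in Y691F under IgM. CCR7, the receptor for lymph node homing chemokines, stood at 393 ± 5.65 CPM in Y691F with IgM and 975 ± 21.9 CPM in WT with IgM (-1.31, SE 0.03, adjusted p = 2.44e-57). P2RY8, a receptor that couples to GNA13, stood at 140.3 ± 4.5 CPM in Y691F with IgM and 79.2 ± 4.78 CPM in WT with IgM (0.82, SE 0.04, adjusted p = 2.24e-33). In untreated cells P2RY8 was slightly lower in Y691F (-0.10, adjusted p = 0.00984). With IgM it fell less in Y691F (-0.51, adjusted p = 1.75e-24) than in WT (-1.43, adjusted p = 3.96e-53). CXCR5, the follicle homing receptor, was higher in Y691F both with IgM (0.55, adjusted p = 6.13e-31) and without (0.70, adjusted p = 3.37e-37). CCR7 rose with IgM by 6.78 in Y691F (adjusted p = 6.34e-91) and by 8.94 in WT (adjusted p = 1.71e-99), with a difference of -2.16 (SE 0.15, adjusted p = 1.15e-21), so like RGS1 it had the smaller response in Y691F. Unlike RGS1, CCR7 was called higher in untreated Y691F, at 3.57 ± 0.162 CPM against 1.97 ± 0.308 CPM in untreated WT (0.85, SE 0.15, adjusted p = 2.33e-06).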

How the data were processed

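Strand-specific polyA+ libraries (dUTP, per the labels' protocols) of 12 samples were analysed from 1 table. The read counts deposited by the authors are whole numbers per Ensembl gene, and the RPKM values deposited by the authors stand beside them, per the file headers. The RPKM values were used only to compare genes per length. STAR 2.5.0b, DESeq2 and GRCh38 are named in the submitters' processing notes; the sources used here name neither the read counter and its strand setting nor the annotation. The RPKM values were compared with exon lengths of GENCODE gene models, and each library's ratio to the summed exon length was constant over the genes described.

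Counts of 16465393 to 21478790 per library were scaled by TMM, genes were kept by filterByExpr (15112 of 60675), and the quasi-likelihood test of edgeR 4.0.16 (robust, R 4.3.3) was fitted with a coefficient for each group, no covariate and all 12 libraries together. A gene was called at a Benjamini-Hochberg adjusted p under 0.05. The biological coefficient of variation was 2.51%. SE is the log2 change over the square root of F. CPM are means ± SD of 3 libraries. P-values measure the spread between these libraries.

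The genes described, the pathway lists and the rules were chosen with earlier results of these data known. One gene of the B cell marker list is not reported here. All 10 genes are named in each comparison, with every tested gene of both families and, from each other list, up to 3 genes with the smallest adjusted p for Y691F against WT under IgM; genes are also named that overlap one of the 10 or are most like GNAZ. Of the lists, 15 other RGS genes and 11 other G alpha genes were complete in the table; of 9 symbols for receptor kinases and arrestins, 7 were in it, since 2 kinases were listed under old and new symbols. Alternatives were DESeq2 1.42.0 size factors, library totals only, the DESeq2 Wald test, limma-voom (limma 3.58.1), no filter, a filter of 5 CPM in 3 libraries, the replicate number as a block, only the groups compared, and each library left out.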

Additional observations from a re-analysis of the deposited data

Results flagged for a closer look

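The IgM response differed between the Roquin2 forms for 6 of the 8 genes tested, by the test of the difference itself (response in Y691F minus response in WT, log2). Over all 15112 genes, 14.7% had a called positive difference and 11% a called negative one. GNAI2 fell less in Y691F, with a difference of 0.42, and RGS19 was called lower with IgM in WT and not called in Y691F, with a difference of 0.32. The difference was 0.36 for RGS16, called as a rise in Y691F and not called in WT, and 0.16 for GNA13, which rose more in Y691F. RGS1 and RGS2 rose less in Y691F, with differences of -1.03 and -0.20. The values for GNA13 and RGS2 were the 2 that lost their call in some alternatives.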

How the results depend on the processing

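Over 20 alternatives, 749 of 812 recomputed values of the 9 genes kept their direction and their side of the threshold, 45 lost the call, 2 gained one and 16 changed sign. GNAZ under IgM ran from -3.04 to -2.11 and was called throughout, as were RGS1, GNAI2, RGS16 and RGS2 in Y691F against WT under IgM. The 5 genes called in untreated cells became 3 with library totals only, the DESeq2 Wald test, no filter, a filter of 5 CPM in 3 libraries and only the groups compared, and 3 to 4 when a library was left out; RGS13 and RGS16, and GNA13 without untreated Y691F replicate 2, lost the call. The counts with a library left out were 5 to 6 under IgM, 7 for IgM in Y691F, 6 to 7 for IgM in WT and 4 to 6 for the difference of responses. Libraries with the same replicate number did not deviate together (correlations -0.067 to 0.049), so the numbers give no pairing; with the replicate block 6 genes were called under IgM, 5 untreated, 7 for IgM in Y691F, 7 in WT and 6 for the difference, and no gene changed its call.

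Signs turned for values near 0. With library totals only, which moved the median of all genes by -0.17 for IgM in Y691F and -0.13 in WT, RGS13 was at -0.057 and -0.014 in the same order, RGS19 in Y691F gained a call (-0.19, adjusted p = 0.00592), and RGS16 in WT gained one. The RGS13 difference of responses was 0.0049 with DESeq2 size factors and 0.0042 with the DESeq2 Wald test. With a library left out, GNAI3 ran from -0.073 to 0.025 for Y691F against WT under IgM, from -0.030 to 0.086 untreated and from -0.12 to 0.0035 for the difference of responses; RGS19 for IgM in Y691F from -0.074 to 0.029; RGS16 for IgM in WT from -0.051 to 0.00080; and the RGS13 difference from -0.061 to 0.047. The cause was not tested. List counts moved by over 1.5 times in 34 checks and by less in 857; the 34 include other RGS genes under IgM (5, 2 to 5 over the alternatives), phospholipase C beta (2, 1 to 2) and beta and gamma subunits (2, 1 to 3). GNA15, and GNAZ under IgM in Y691F, are limited by their few counts.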
